A study of Mus musculus with 8 samples.

Results

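Many of the genes described here build the cornified envelope. This protein shell replaces the plasma membrane of a keratinocyte as it dies at the skin surface. The genes lie together on mouse chromosome 3 in the epidermal differentiation complex. They were chosen by name and position: every gene on chromosome 3 whose symbol begins with Lce (late cornified envelope) or Sprr (small proline-rich), together with Lor (loricrin), Ivl (involucrin), Kprp, Crct1, Lelp1, Smcp, Pglyrp3 and Pglyrp4. This gave 46 of the 49671 genes in the deposited count table: 14 Lce1, 6 Lce3 and 1 Lce6 gene, 17 Sprr genes, and the 8 single genes. All 46 are called envelope genes below for short, including those taken in by name only, such as Pglyrp3, Pglyrp4 and Smcp. RNA had been taken from total back skin, shaved, of mice aged 8 weeks that were wild type at Flg (wt/wt, 4 libraries) or homozygous for a Flg knockout (ko/ko, 4 libraries). Flg encodes profilaggrin, the keratohyalin precursor of filaggrin, and lies in the same gene complex. The sources used here do not give how the knockout allele was made, the strain or the sex of the mice, and they name no treatment for either genotype. Whether the libraries stem from 8 different mice is not spelled out in the labels, so p-values measure the spread between these libraries, which may be in part technical.

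Envelope proteins are made in the granular layer of the epidermis and are joined to each other by transglutaminases. Involucrin and other early proteins form a scaffold at the cell membrane, loricrin then adds most of the mass, and the small proline-rich and late cornified envelope proteins are linked into the same shell. In skin, Lce1 genes are known for steady expression in normal epidermis, Lce3 genes for induction after injury and in inflammation, and Sprr genes for induction by barrier stress.

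The 5′ flanking sequences are shown first because the counts of motif matches differ between the Sprr and Lce genes. AP-1, the dimer of Fos and Jun proteins, is a known regulator of several envelope genes. In the 250 bases upstream of the RefSeq start (GRCm38.p6, both strands searched), the AP-1 motif TGANTCA occurred in 6.75% of 32817 promoters in the reference table. A promoter was available for 38 of the 46 members. The motif occurred in 9 of 14 Sprr promoters, in those of Lor and Ivl, and in 0 of 20 Lce promoters, which makes 11 of 38 (28.9%). Of the 9 Sprr promoters, 7 belonged to Sprr2 genes, which are related family members and not separate observations. Among the Sprr genes with enough counts to be tested, Sprr1a carried the motif and Sprr2a3 and Sprr4 did not. All other Sprr matches lay in genes with too few counts to be tested. The Lce genes are related family members too. At a share of 6.75%, few matches would be seen in 20 promoters, so their 0 is not read as a lack. The TATA box letters TATAAA occurred in 12.4% of all promoters, in 10 of 14 Sprr promoters and in 4 of 20 Lce promoters. All Sprr matches lay on the gene strand, at positions -43 to -29 from the start. Those of Lce1d (-30) and Lce1m (-29) lay there too. Those of Lce3e (-243) and Lce6a (-218) lay farther upstream on the opposite strand. The letters CCAAT occurred in 33.8% of all promoters and in 8 of the 38 (21.1%). Matches to different motifs did not overlap in the sequences shown, and a match describes letters only, not a bound site. The sequences below are the 200 bases that end at the base before the start, 5′ to 3′ on the gene's strand, with matches to TGANTCA and TATAAA in capitals. They are those of Lor and Ivl, of Sprr1a and Sprr2h for the Sprr genes, of Lce1m and Lce1i for Lce1 and of Lce3c for Lce3. Sprr2h and Lce3c were picked after their counts were seen, as the members with the most counts among the untested Sprr2 and Lce3 genes.
Lor, chr3:92083143-92083342, minus strand: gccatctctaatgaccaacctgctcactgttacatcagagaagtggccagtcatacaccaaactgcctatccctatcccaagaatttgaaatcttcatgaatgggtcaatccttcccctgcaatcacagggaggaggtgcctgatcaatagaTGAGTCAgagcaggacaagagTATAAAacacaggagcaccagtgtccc
Ivl, chr3:92573736-92573935, minus strand: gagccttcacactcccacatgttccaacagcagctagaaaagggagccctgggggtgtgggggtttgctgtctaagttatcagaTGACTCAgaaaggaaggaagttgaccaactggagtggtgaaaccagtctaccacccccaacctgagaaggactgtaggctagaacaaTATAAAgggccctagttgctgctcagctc
Sprr1a, chr3:92485882-92486081, minus strand: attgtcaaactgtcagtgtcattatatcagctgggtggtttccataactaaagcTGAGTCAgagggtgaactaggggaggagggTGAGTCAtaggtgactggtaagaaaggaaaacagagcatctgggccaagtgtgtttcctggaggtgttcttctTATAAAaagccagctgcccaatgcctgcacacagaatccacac
Sprr2h, chr3:92385485-92385684, plus strand: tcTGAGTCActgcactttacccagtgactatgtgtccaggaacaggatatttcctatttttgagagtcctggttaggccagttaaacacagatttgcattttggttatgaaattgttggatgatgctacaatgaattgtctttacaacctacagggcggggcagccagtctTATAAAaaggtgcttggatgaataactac
Lce1m, chr3:93019062-93019261, minus strand: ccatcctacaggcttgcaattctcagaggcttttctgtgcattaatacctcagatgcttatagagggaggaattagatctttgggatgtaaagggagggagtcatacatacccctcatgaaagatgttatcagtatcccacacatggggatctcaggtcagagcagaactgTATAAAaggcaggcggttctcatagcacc
Lce1i, chr3:92778900-92779099, minus strand: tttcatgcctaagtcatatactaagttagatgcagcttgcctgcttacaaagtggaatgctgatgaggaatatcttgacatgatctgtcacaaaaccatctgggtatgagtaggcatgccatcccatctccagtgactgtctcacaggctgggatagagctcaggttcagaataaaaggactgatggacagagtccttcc
Lce3c, chr3:92944286-92944485, plus strand: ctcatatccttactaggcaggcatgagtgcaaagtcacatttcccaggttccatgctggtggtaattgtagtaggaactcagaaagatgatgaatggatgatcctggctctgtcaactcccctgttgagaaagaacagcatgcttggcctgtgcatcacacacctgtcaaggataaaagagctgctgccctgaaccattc
In Lor the AP-1 letters began 48 bases before the start, in Ivl 116 bases before it, and Sprr1a carried a pair, at 146 and 116 bases. Lce1m had TATAAA 29 bases before its start, and Lce1i and Lce3c had neither motif in the window.

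Flg itself was read first as the check on the genotypes. Its normalised level was 66.9, 46.5, 56.1 and 66.6 CPM (read counts scaled to the effective library size) in wild type libraries 1 to 4 and 27.0, 24.7, 24.1 and 22.3 CPM in knockout libraries 1 to 4. The genotypes did not overlap, and the knockout mean of 24.5 ± 1.96 CPM was 41.6% of the wild type mean of 59.0 ± 9.77 CPM (SD, n = 4 each). The log2 fold change was -1.27 ± 0.12 (SE, edgeR quasi-likelihood test, adjusted p = 0.00326), and the two-sided exact permutation test gave 0.0286, the smallest p its 70 assignments allow. Flg RNA was lower in the knockout libraries but present in each of them, and where along the gene those reads lie was not analysed here.

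Library totals ran from 18483242 to 38545957 counts, and the 46 members took 0.150% to 0.223% of them. In bulk skin, fewer cells of a type and less RNA per cell cannot be told apart, and levels here are relative to all RNA of the tissue. Of the 14 genes of the white adipocyte marker list, 13 were above 0 in knockout over wild type and none at 0 in every library, the median log2 fold change being 0.80 and no gene called. Their summed level was 2255 to 4837 CPM in wild type and 3752 to 5572 CPM in knockout, with the highest wild type value in library 3. Summed suprabasal keratinocyte markers were 11967 to 12693 and 10198 to 12429.9 CPM, and basal keratinocyte markers 8736 to 9896 and 7956 to 8981 CPM. The T cell markers were at 78.4 to 126.5 CPM in wild type and 40.6 to 56.3 CPM in knockout, without overlap, with 9 of 9 genes below 0. Of these, 1 was called lower, Cd2 (-0.82 ± 0.17, edgeR adjusted p = 0.0483), beside 0.702% of all genes tested. Over all 19099 genes tested, taken singly, 46.7% were above 0 and 11.5% had genotypes that did not overlap. Hair shaft and inner root sheath markers were at 11.5 to 19.5 CPM in 7 libraries and 78.1 CPM in knockout library 4. Melanocyte markers were at 33.5 to 77.0 and 32.7 to 102.3 CPM, with 1 of 6 genes called lower, Mlana (-1.83 ± 0.30, edgeR adjusted p = 0.0231). Sebaceous gland markers were at 1034 to 1902 and 1071 to 1400 CPM. Fibroblast markers were at 23093 to 36956 and 25428 to 37093 CPM, and skeletal muscle markers at 13697 to 19158 and 16261.5 to 20700 CPM. Testis markers stayed at 0.39 CPM or less, with 2 genes at 0 in every library, and oesophagus and forestomach type markers at 4.93 CPM or less. Apart from the fits with white adipocyte or keratin genes as a covariate, the part of these markers in the results was not tested. Because the adipocyte markers were mostly higher in knockout, that covariate and genotype cannot be fully told apart in these 8 libraries. One library also weighed heavily on the whole fit: without wild type library 3, edgeR called 1325 of 19429 genes, against 270 of 19099 with it.

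None of the tested envelope genes was called between the genotypes. Of the 46 members, 24 had enough counts to be tested: all 14 Lce1 genes, Lce6a, Sprr1a, Sprr2a3, Sprr4, Lor, Ivl, Kprp, Crct1, Pglyrp3 and Pglyrp4. At an adjusted p under 0.05, edgeR called 0 of 24, where 0.712% of the 19099 genes tested were called higher and 0.702% lower, 1.41% in all. At an unadjusted p under 0.05 there was 1 member, Sprr1a, against 19.5% of all genes. DESeq2 called 0 of the 25 members to which it gave an adjusted p, beside 5.65% of all 20083 such genes. Of the 42 members with a DESeq2 p, 3 (Sprr1a, Sprr2h and Sprr4) had an unadjusted p under 0.05, beside 11% of all 36256 such genes. The CPM of the genotypes overlapped in all 24, whereas they did not overlap in 11.5% of all genes tested. The log2 fold change was above 0 in 11 and below 0 in 13, with a median of -0.0072 beside -0.019 over all genes tested. The median biological coefficient of variation was 18.3% for the 24 genes and 14.5% for all genes. For 12 of the 24, the 95% interval of the fold change lay within 1.5-fold in either direction, and for 21 within 2-fold. The other 22 members reached at most 24 counts in any library and 66 counts in total, against a total of at least 187 for each tested member. Of these, Sprr2b, Sprr2c-ps, Sprr2k and Lce3b had 0 counts in every library, where a floor of 3 counts corresponds to 0.0789 to 0.161 CPM.

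Per kilobase of exon, Lor had the highest level, a mean of 505 CPM per kb over the 8 libraries. Lce1m followed at 265, Crct1 at 197 and Sprr1a at 118 CPM per kb. Lce1a1 was at 87.04, Sprr4 at 81.9 (on an annotated exon length of only 231 bases), Lce1c at 51.7, Kprp at 47.45 and Ivl at 28.8 CPM per kb. The lowest tested members were Lce1h at 2.49, Pglyrp4 at 2.05 and Sprr2a3 at 0.301 CPM per kb. Of the 23 pairs of neighbours in this order, 19 had library ranges that crossed, so their order is not settled. The 4 that did not cross were Lor and Lce1m, Lce1m and Crct1, Ivl and Lce1f, and Pglyrp4 and Sprr2a3.

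**Figure D1:**
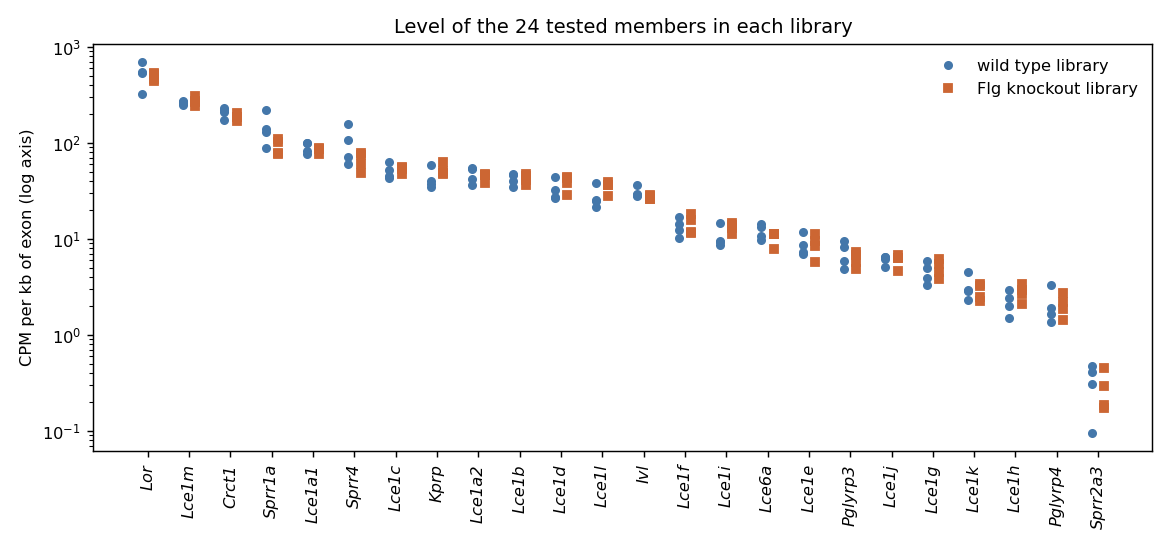
Level of each tested member in each of the 8 libraries, in CPM per kb of exon on a log axis, ordered by mean level, with the 4 wild type and 4 knockout libraries as separate symbols. Lor, Lce1m and Crct1 lead, Sprr2a3 is lowest at a mean of 0.301, and the symbols of the genotypes intermix in every gene.

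Loricrin, the glycine-rich protein that makes up most of the envelope's mass, showed no difference beyond the spread between libraries. Lor (ENSMUSG00000043165, mm10 chr3:92080271-92083142, minus strand, 2 exons) stood at 1217, 574, 936 and 979 CPM in wild type libraries 1 to 4. In knockout libraries 1 to 4 it stood at 819.6, 930.2, 788 and 943 CPM. The wild type libraries held both the highest and the lowest value, and the knockout values lay between them. The log2 fold change was -0.09 ± 0.19 (95% interval -0.51 to 0.33, edgeR adjusted p = 0.826; two-sided exact permutation p = 0.886). Without wild type library 1 it was 0.07, so its direction rests on that library. The highest wild type value was 2.12 times the lowest, and the corresponding ratio among knockout libraries was 1.20.

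Involucrin, a scaffold protein laid down early under the membrane, was measured more tightly. Ivl (ENSMUSG00000049128, chr3:92570902-92573735, minus strand, 2 exons) was at 53.1, 69.7, 56.4 and 55.0 CPM in wild type and 49.7, 55.0, 54.0 and 49.9 CPM in knockout libraries 1 to 4. Wild type library 2 stood above the other 7, which overlapped. Knockout over wild type was -0.17 ± 0.10 on the log2 scale (95% interval -0.38 to 0.04, edgeR adjusted p = 0.364; two-sided exact permutation p = 0.143). On the fold scale, that interval lay within 1.5-fold in either direction.

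Kprp, the keratinocyte proline-rich protein, had the highest fold change of the 4 abundant single genes. Kprp (chr3:92823074-92827247, minus strand) was at 101, 109.6, 160.3 and 94.4 CPM in wild type and 170.3, 133, 128 and 139.6 CPM in knockout. Only wild type library 3 reached into the knockout range. Its log2 fold change was 0.29 ± 0.16 (95% interval -0.07 to 0.65, edgeR adjusted p = 0.349). Without wild type library 3 it was 0.49 ± 0.11 and was called (adjusted p = 0.0314), in a fit that called 6.82% of its 19429 genes. With limma voom and library weights, it was called at 0.41 ± 0.12 (adjusted p = 0.0446), where 13.3% of all genes were called. With the white adipocyte markers as a covariate it was -0.13, on the other side of 0.

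Crct1, a small cysteine-rich protein gene beside Lce1m, was at 184, 138, 174 and 165 CPM in wild type and 146, 148, 162 and 133 CPM in knockout. The highest 3 values were all wild type, but wild type library 2 lay within the knockout range. This gave a log2 fold change of -0.17 ± 0.10 (95% interval -0.39 to 0.05, edgeR adjusted p = 0.378).

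**Figure D2:**
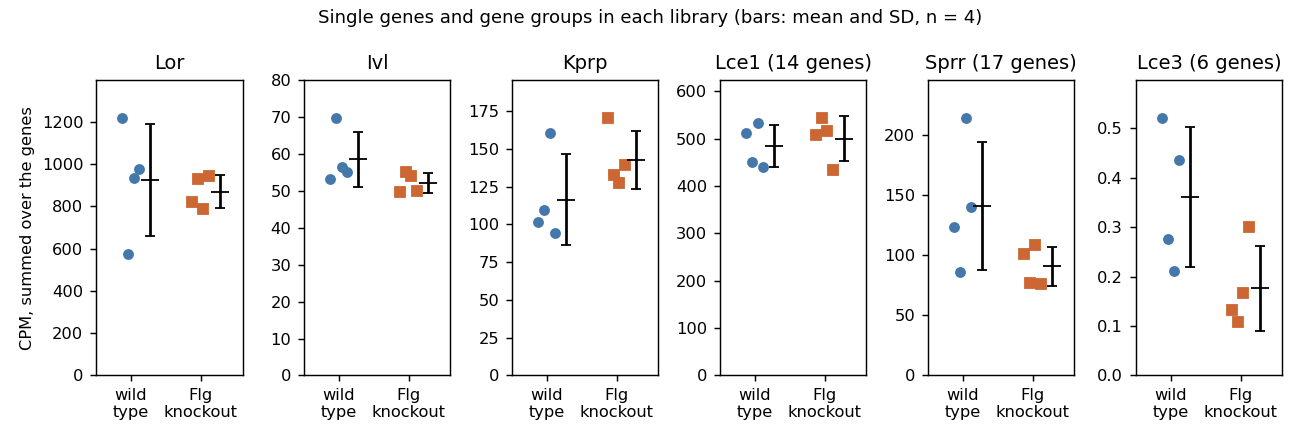
CPM of single genes and summed CPM of gene groups in each library (vertical axes, linear from 0), by genotype, with points for the 4 libraries of a group and bars for mean and SD. Lor is widest in wild type, Lce1 sums sit between 434 and 543 CPM in both genotypes, and wild type library 3 is the highest point for the Sprr sum at 214 CPM.

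The summed level of the Lce1 genes, which encode small cysteine-rich proteins added late to the envelope, differed between genotypes by less than the spread between libraries. Their sum was 512, 452, 533 and 441 CPM in wild type (484.6 ± 45.1) and 508, 543, 517 and 434 CPM in knockout (500.5 ± 46.8). Both genotypes covered nearly the same range, and the difference in mean log2 sum was 0.05. Of the 14 genes, 9 were above 0 and 5 below, the median being 0.05 and the range from -0.14 (Lce1k) to 0.34 (Lce1h). With the white adipocyte markers as a covariate, 3 were above 0 and 11 below, with a median of -0.17. Without wild type library 3 the median was 0.19, with 13 above 0, and without wild type library 4 it was 0.00035, with 7 above 0. Lce1m alone carried 51.3% of the Lce1 sum in wild type and 51.0% in knockout.

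Lce1m (chr3:93017810-93019060, minus strand) lies apart from the other Lce1 genes, beyond the Lce3 group and next to Crct1. It was at 259, 252, 247 and 233 CPM in wild type and 250.04, 289.7, 255 and 227 CPM in knockout. Knockout libraries held both the highest and the lowest value. Its log2 fold change was 0.04 ± 0.09 (95% interval -0.15 to 0.24, edgeR adjusted p = 0.815), the smallest standard error among the tested members, and it was -0.02 without knockout library 2.

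For description only, the Lce1 genes other than Lce1m were split between Lce1c and Lce1d. This cut was not among the planned groups and was set with earlier results of these data known. The medians of the blocks therefore show no pattern by position. The block of Lce1a1, Lce1b, Lce1a2 and Lce1c had a median fold change of -0.03 (log2) and took 33.004% of the Lce1 sum in wild type and 31.3% in knockout. Lce1a1 was at 70.8, 53.7, 70.7 and 58.4 CPM in wild type and 60.9, 62.15, 60.4 and 53.9 CPM in knockout, a log2 fold change of -0.10 ± 0.10 (edgeR adjusted p = 0.635). Lce1c was at 38.05, 32.3, 45.3 and 30.8 CPM in wild type and 38.5, 40.6, 39.65 and 34.0 CPM in knockout, a log2 fold change of 0.06 ± 0.12 (edgeR adjusted p = 0.826). In both genes the knockout values lay inside the wild type range. The median of the block lay above 0 without wild type library 1 (0.037) or 3 (0.043) or knockout library 4 (0.038), and it was -0.12 without wild type library 2 and -0.25 with the adipocyte covariate.

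On the other side of the unplanned cut, the 9 genes from Lce1d to Lce1l had a median fold change of 0.15 (log2). Of them, 7 were above 0 and 2 below, and together they took 15.6% of the Lce1 sum in wild type and 17.6% in knockout. Lce1l was at 17.2, 16.8, 25.8 and 14.4 CPM in wild type and 24.1, 24.3, 26.0 and 18.6 CPM in knockout (0.33 ± 0.18, edgeR adjusted p = 0.337). Lce1i was at 6.96, 6.84, 10.8 and 6.29 CPM in wild type and 10.2, 9.47, 10.6 and 8.23 CPM in knockout (0.32 ± 0.18, edgeR adjusted p = 0.345). In both, 3 wild type libraries lay below all knockout libraries and wild type library 3 lay among or above them. Without that library, Lce1l (0.53 ± 0.13, adjusted p = 0.0400) and Lce1i (0.53 ± 0.13, adjusted p = 0.0404) were called, which with Kprp made 3 members. With the white adipocyte markers as a covariate, the direction of the block turned: 2 of its 9 genes were above 0 and 7 below, with a median of -0.057, and the values were 0.0085 for Lce1l and -0.0032 for Lce1i. That covariate itself differed with genotype, as stated above. Over left-out libraries the median of the block ran from 0.032 (without knockout library 1) to 0.31 (without wild type library 3).

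Lce6a, a single late cornified envelope gene next to Lce1a1, was at 7.83, 10.6, 11.3 and 8.55 CPM in wild type and 8.9996, 8.99, 8.91 and 6.17 CPM in knockout. Its log2 fold change was -0.21 ± 0.17 (edgeR adjusted p = 0.517), with 3 nearly equal knockout libraries and knockout library 4 below them.

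In the deposited counts, the Lce3 genes were at the edge of detection in back skin of both genotypes. The 6 genes together had 41 counts in the 4 wild type libraries and 19 in the 4 knockout libraries, beside 52954 and 53470 counts for Lce1. Lce3c held 30 and 15 of them, and Lce3b none. Their summed level was 0.52, 0.28, 0.21 and 0.44 CPM in wild type and 0.13, 0.11, 0.17 and 0.30 CPM in knockout. Knockout libraries 1 to 3 lay below all wild type libraries, whereas knockout library 4 lay above wild type libraries 2 and 3. The ratio of knockout to wild type counts was 0.463, with an exact 95% interval of 0.254 to 0.816 that covers counting error only and not the spread between libraries. No Lce3 gene reached the filter, and none was tested by edgeR.

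The Sprr genes, whose proline-rich products bridge other envelope proteins, had the lowest fold changes among the tested members, but none was called. Their sum was 123, 86.3, 214 and 139.7 CPM in wild type (140.7 ± 53.5) and 101, 77.2, 108 and 76.0 CPM in knockout (90.6 ± 16.4). Wild type libraries 1, 3 and 4 stood above all knockout libraries and wild type library 2 within their range. The difference in mean log2 sum was -0.58, and it was -0.35 without wild type library 3. The sum was made almost wholly by Sprr1a and Sprr4.

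Sprr1a (chr3:92483952-92485895, minus strand, 2 exons), one of the pair of Sprr1 genes, was at 104, 71.55, 176 and 112 CPM in wild type and 82.3, 61.6, 89.3 and 62.8 CPM in knockout. The knockout mean was 63.9% of the wild type mean. Its log2 fold change was -0.64 ± 0.25 (95% interval -1.20 to -0.09, unadjusted p = 0.0267, edgeR adjusted p = 0.200), the lowest adjusted p of the 24 members. Without wild type library 3, the highest, it was -0.36 (adjusted p = 0.231). With limma voom it was called at -0.65 ± 0.18 (adjusted p = 0.0463), which with Kprp made 2 members. Its family member Sprr1b had 19 counts in wild type and 12 in knockout and was not tested.

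Sprr4 was at 16.6, 13.8, 36.0 and 24.9 CPM in wild type and 17.2, 13.9, 17.9 and 11.2 CPM in knockout. Wild type library 3 was again the highest, and the log2 fold change of -0.60 ± 0.28 (95% interval -1.23 to 0.03, edgeR adjusted p = 0.282) became -0.28 without it. With the white adipocyte markers as a covariate, Sprr1a was at -1.04 (adjusted p = 0.266) and Sprr4 at -1.03 (adjusted p = 0.333).

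The 13 Sprr2 genes, a tandem family of the complex, had 227 counts in wild type and 150 in knockout. The ratio of 0.66 had an exact 95% interval of 0.533 to 0.815 for counting error only, while the library sums of 0.71 to 2.77 CPM in wild type and 1.08 to 1.80 CPM in knockout overlapped. Sprr2a3, the only one tested, was at 1.18, 0.28, 0.88 and 1.38 CPM in wild type and 0.50, 0.86, 0.54 and 1.31 CPM in knockout (-0.25 ± 0.45, edgeR adjusted p = 0.794). Of its 50-base transcript stretches, 61.1% occur in another gene, as do 96.3% in Sprr2a1 and 96.5% in Sprr2a2, so reads among these 3 genes may be assigned to another or dropped, whereas the other Sprr2 genes shared 14.1% or less. Sprr2h, the untested Sprr2 gene with the most counts, had 48 in wild type, 24 of them in library 1, and 18 in knockout. Sprr3, an envelope gene of inner epithelia, had 1 count in all libraries together.

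The peptidoglycan recognition genes Pglyrp3 and Pglyrp4 encode secreted proteins that bind bacterial cell walls. Pglyrp3 was at 5.40, 10.4, 9.14 and 6.57 CPM in wild type and 7.60, 8.08, 5.41 and 6.40 CPM in knockout (-0.19 ± 0.21, edgeR adjusted p = 0.645). Pglyrp4 was at 3.90, 3.20, 7.88 and 4.47 CPM in wild type and 6.42, 4.39, 5.21 and 3.37 CPM in knockout (0.0077 ± 0.29, edgeR adjusted p = 0.992). The knockout values lay inside the wild type range in both genes, and the sign of Pglyrp4 changed with library totals as the only scaling. Lelp1 reached at most 1 count in a library and Smcp, a gene named for its product in sperm, at most 2.

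**Figure D3:**
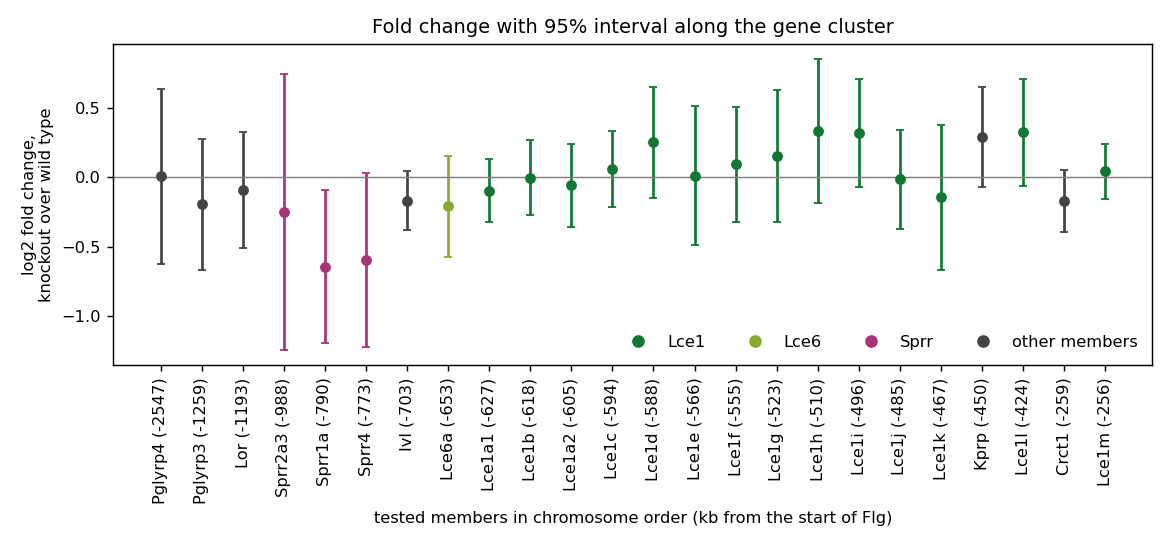
Log2 fold change of each tested member, knockout over wild type, with its 95% interval (vertical axis), in chromosome order with the distance from the start of Flg in kb (horizontal axis). Every interval except that of Sprr1a includes 0, and the widest is that of Sprr2a3.

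Ratios within a library, which do not depend on its scaling, were set side by side for the groups and were not tested. Sprr over Lce1 was -1.86 ± 0.46 in wild type and -2.48 ± 0.25 in knockout on the log2 scale (mean ± SD, n = 4), a difference of -0.62, and -0.45 without wild type library 3. Lce3 over Lce1 was -10.48 ± 0.65 and -11.58 ± 0.78, a difference of -1.10 that rests on the 60 counts of Lce3. Lor over Lce1 was 0.89 ± 0.41 and 0.80 ± 0.22, and Ivl over Lce1 was -3.05 ± 0.27 and -3.26 ± 0.10. Lor over Ivl was 3.94 ± 0.63 and 4.06 ± 0.15. The genotypes overlapped in each of these ratios. Relative to Krt1 plus Krt10, the keratins of the spinous and granular layers, the difference was 0.16 for Lce1, -0.46 for Sprr, 0.07 for Lor, -0.05 for Ivl and 0.43 for Kprp. As shares of the CPM of all members, Lor made up 48.4% in wild type and 47.7% in knockout, Lce1 25.3% and 27.5%, and Sprr 7.35% and 4.97%. Crct1 made up 8.64% and 8.06%, Kprp 6.08% and 7.82%, and Ivl 3.06% and 2.86%.

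Single wild type libraries set much of the spread. Wild type library 3 was the highest of 8 for 9 of the 24 tested members and the lowest for 0. Wild type library 2 was the lowest for 9 and the highest for 2. Among knockout libraries, library 1 was the highest for 5 and library 4 the lowest for 6. The summed level of all members was 1454 to 2208 CPM in wild type (1915 ± 333.9) and 1777 to 1908 CPM in knockout (1823 ± 58.8). Wild type library 2 was the lowest of 8 for Lor and the highest of 8 for Ivl.

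**Figure D4:**
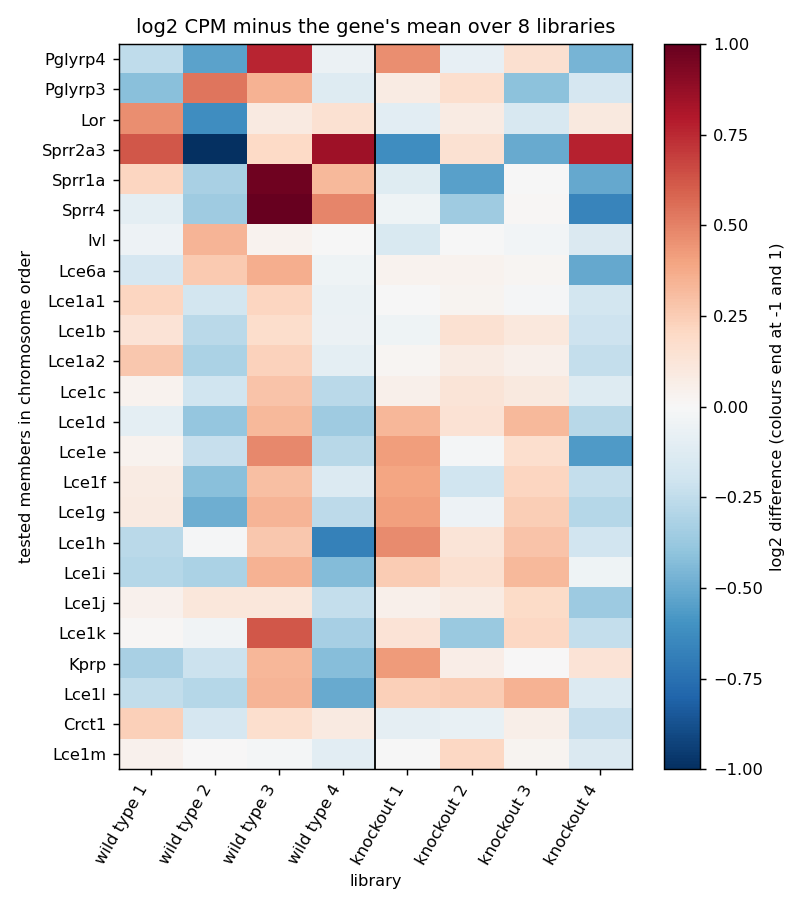
Log2 CPM minus the gene's mean over the 8 libraries (colour, ends at -1 and 1) for the 24 tested members in chromosome order (rows) in the 8 libraries (columns). Wild type library 3 has the highest value in 9 rows and wild type library 2 the lowest in 9, and no row separates the genotypes.

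Other genes of envelope assembly were read from the same fit, in lists that carry no test of their own. Beside the counts of called genes in this and the next lists stand 0.712% called higher and 0.702% lower over all 19099 genes tested. Of 19 tested crosslinking enzymes and scaffold proteins, 0 were called higher and 2 lower, with 7 above and 12 below 0 and a median of -0.10. Tgm5, a transglutaminase of the upper epidermis, fell from 52.5 ± 1.70 to 35.4 ± 2.91 CPM (log2 -0.57 ± 0.08, edgeR adjusted p = 0.0154). Its call was lost without knockout library 2 (adjusted p = 0.0739) or 4 (0.066). It was also lost with the white adipocyte covariate (edgeR adjusted p = 0.198) or the Krt1 and Krt10 covariate (0.0741). Cst6, the protease inhibitor cystatin M/E, fell from 453.6 ± 104 to 249.7 ± 21.7 CPM (-0.86 ± 0.16, edgeR adjusted p = 0.0359) and stayed called without wild type library 2 or 3, but without no other library (adjusted p up to 0.130). With the same covariates Cst6 lost its call too (edgeR adjusted p = 0.109 and 0.141). Cnfn, the envelope protein cornifelin, was at -0.38 ± 0.08 (edgeR adjusted p = 0.0512). Tgm2, another transglutaminase, went the other way, from 161.7 ± 68.8 to 311.5 ± 27.4 CPM (0.95 ± 0.27, edgeR adjusted p = 0.107). It was not called, and its genotypes did not overlap (wild type up to 228 CPM, knockout from 282 CPM), as in 11.5% of all genes tested.

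Of 6 tested fused S100 genes of the complex, which include Flg, 1 was called lower (Flg) and 3 were above 0. Hrnr, hornerin, was at 0.19 ± 0.08 (edgeR adjusted p = 0.206). Rptn, repetin, was at -0.72 ± 0.47 (adjusted p = 0.432) and at 0.01 without wild type library 3. Of 22 transcription factors of late differentiation, none was called, with 10 above and 12 below 0. The smallest p values were those of Pou2f3 (-0.33 ± 0.09, edgeR adjusted p = 0.0878), Arnt (0.22 ± 0.08, adjusted p = 0.154) and Barx2 (-0.35 ± 0.15, adjusted p = 0.227).

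Of 13 suprabasal keratinocyte genes, 0 were called higher and 2 lower, with 2 above and 11 below 0 and a median of -0.14. Lypd3 fell from 93.6 ± 6.29 to 67.3 ± 6.72 CPM (-0.48 ± 0.09, edgeR adjusted p = 0.0370). Calml3, a calmodulin-like gene, fell from 130.8 ± 10.1 to 99.1 ± 7.44 CPM (-0.40 ± 0.08, edgeR adjusted p = 0.0483). Both stayed called without wild type library 2 or 3 and lost the call without any of the other 6 (adjusted p up to 0.157). Over all 17 alternative fits, which include these, Lypd3 was called in 9 and Calml3 in 8. Lgals7, galectin-7, was at -0.87 ± 0.19 (edgeR adjusted p = 0.05233).

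Of 12 tested keratinocyte alarm genes, 0 were called higher and 1 lower, with 6 above and 6 below 0. Tslp, a cytokine gene that keratinocytes express, fell from 9.14 ± 3.18 to 4.04 ± 0.81 CPM (-1.16 ± 0.25, edgeR adjusted p = 0.0496), a call that stayed without wild type library 3 and was lost without any of the other 7 (adjusted p up to 0.158). Over all 17 alternative fits, Tslp was called in 6. Krt16, a keratin of stressed epidermis, was at -0.49 ± 0.13 (edgeR adjusted p = 0.0841), and S100a9, a calprotectin subunit, at -1.06 ± 0.32 (adjusted p = 0.118). Those above 0 included S100a8, the other calprotectin subunit, at 1.29 ± 0.58 (edgeR adjusted p = 0.266), and Lcn2 at 0.69 ± 0.25 (adjusted p = 0.177). Of 6 genes of peptidoglycan recognition and sensing, none was called. Pglyrp1 was at -0.54 ± 0.20 (edgeR adjusted p = 0.186), Nod2 at -0.30 ± 0.11 (adjusted p = 0.192) and Ripk2 at -0.11 ± 0.08 (adjusted p = 0.498).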

How the data were processed

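The submitters' processing notes name GSNAP, featureCounts 1.6.2 and the mouse build mm10. The authors deposited raw counts per gene. Neither how strand was set nor how multiply aligned reads were counted is given in the sources used here. The series design text names a SMART protocol and the sample labels a directional NEB kit, and neither was assumed.

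Symbols came from GENCODE M21 on the same build, with 49326 of 49671 genes matched. Spike-ins (92 features) were left out. From the deposited counts, edgeR 4.0.16 (R 4.3.3) with filterByExpr, TMM scaling and robust quasi-likelihood fits compared knockout with wild type over all 8 libraries. P-values were adjusted by Benjamini-Hochberg over all 19099 genes tested, and called genes had an adjusted p under 0.05. CPM are counts over the TMM-scaled library size, and log2 fold changes give knockout relative to wild type. SE came from the F statistic and 95% intervals from edgeR's degrees of freedom. Alternatives used RLE, upper quartile or no factors, DESeq2 1.42.0, limma 3.58.1 voom, other filters, 2 covariates and each library left out.

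The members and lists were chosen with earlier results of these data known. Given in full were the single genes, the 3 members of each Lce or Sprr subfamily with the highest level per kb and the 2 with the smallest p, and the 3 genes with the smallest p of each pathway list. Outside this rule, Tgm2, Lcn2 and S100a8 were added as genes above 0, and Cd2 and Mlana as called genes of marker lists.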

Additional observations from a re-analysis of the deposited data

Results flagged for a closer look

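Of 138 sets of 4 libraries examined, 7 held a library far from the other 3 of its genotype by Dixon's criterion for gaps at the end of a range, and chance alone marks about 1 in 20. Among the envelope genes, Lce1i was at 10.79 CPM in wild type replicate 3, and the next value was 6.96 CPM. Lce6a was at 6.17 CPM in knockout replicate 4, and the next value was 8.91 CPM. The log2 ratio of Ivl to Krt1 plus Krt10 was -5.99 in wild type replicate 2, and the next value was -6.37. Among the other genes and lists, Rptn was at 102.3 CPM in wild type replicate 3, with the next value at 30.0 CPM. S100a9 was at 1.74 CPM in wild type replicate 2, with the next value at 3.20 CPM. The summed hair shaft and inner root sheath markers were at 78.1 CPM in knockout replicate 4, with the next value at 14.3 CPM. The summed melanocyte markers were at 102.3 CPM in knockout replicate 1, with the next value at 34.4 CPM.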

How the results depend on the processing

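The count of genes called moved with the method, from 136 higher and 134 lower to 586 and 549 with DESeq2, 1174 and 1361 with limma voom, 234 and 268 with no low-count filter, 27 and 4 with the Krt1 and Krt10 covariate, and 0 and 0 with the white adipocyte covariate. Leaving out 1 library gave 9 to 679 higher and 2 to 646 lower, with the most without wild type replicate 3 and the fewest without knockout replicate 2. Envelope genes called stayed at 0 except with limma voom (1 higher, 1 lower) and when 1 library was left out (0 to 3 higher, the 3 without wild type replicate 3). Their median was -0.22 with the white adipocyte covariate, with 21 of 24 genes below 0. Flg kept its direction throughout and lost its call only with that covariate (-1.32). That covariate put 8 of the 24 genes on the other side of 0: Kprp (-0.13), Pglyrp4 (-0.55), Lce1c (-0.21), Lce1d (-0.057), Lce1e (-0.35), Lce1f (-0.17), Lce1g (-0.19) and Lce1i (-0.0032). The Krt1 and Krt10 covariate did so for 5: Pglyrp4 (-0.033), Sprr2a3 (0.074), Lce1b (0.021), Lce1e (-0.13) and Lce1f (-0.069). Limma voom did so for Pglyrp3 (0.034) and Lce1e (-0.017), library totals alone for Pglyrp4 (-0.010) and Lce1e, and RLE factors and DESeq2 each for Lce1b and Lce1j. Leaving out 1 library turned the sign of 10 of the 24 at least once: Lce1a2, Lce1b, Lce1e, Lce1f, Lce1j, Lce1k and, with the range over left-out libraries, Lor (-0.26 to 0.069), Pglyrp4 (-0.17 to 0.35), Lce1m (-0.021 to 0.099) and Lce1c (-0.015 to 0.18). Among other genes, that of Rptn ran from -0.93 to 0.011. The cause of these changes was not tested. No paired analysis was possible because the replicate numbers follow sample order and pair nothing. At these depths, 22 of the 46 genes could not be tested.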
